A study of Oryza sativa with 2 samples.

Results

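The 6 stress NAC transcription factor genes NAC6, SNAC1, NAC5, NAC10, NAC3 and NAC4 were followed in young rice panicles shorter than 2 cm, out of 57446 genes in the deposited expression table. They were chosen by locus identifier, with their levels in these same libraries already known, so their differences are described here and not tested. The lf2 library comes from a mutant line of the gene LATERAL FLORET 2, given in the series title as an SNF2-type remodeller of chromatin that acts on axillary meristems of the spikelet, the floret-bearing unit of the grass panicle, and the XD1B library is the wild type set against it. The lf2 allele, the number of plants in each sample and the age of the plants are not given in the labels. Each group is 1 library of whole young inflorescences, so the spread between panicles is unknown, and differences are given without p-values. Levels are FPKM, fragments per unit of gene length relative to the depth of each library, as the authors deposited them. The library totals recovered from the values were 27373727 fragments for lf2 and 29111345 for XD1B.

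NAC proteins are plant transcription factors with a conserved DNA-binding domain at the N-terminus and a variable C-terminal region that acts on transcription. A subgroup of them is switched on by drought, salt, cold, wounding and the hormone abscisic acid, and in rice these stress NAC genes have been studied mainly in seedlings, leaves and roots, where raising their level has been linked to tolerance of drought or salt. Other NAC genes act in development, for example at organ boundaries and in secondary cell walls. The locus identifiers place NAC6 (LOC_Os01g66120) and NAC4 (LOC_Os01g60020) on chromosome 1, SNAC1 (LOC_Os03g60080) on chromosome 3, NAC3 (LOC_Os07g12340) on chromosome 7, and NAC5 (LOC_Os11g08210) and NAC10 (LOC_Os11g03300) on chromosome 11. The RefSeq gene table holds the names of 4 of them, NAC6, NAC5, NAC3 and NAC4, each at the matching place on its chromosome, and for SNAC1 and NAC10 the name is the one these loci were selected under.

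All 6 genes had a higher FPKM in the lf2 library than in the XD1B library, and together they summed to 1101 FPKM in lf2 and 16.7 FPKM in XD1B. The difference was measured as log2((lf2 FPKM + 1)/(XD1B FPKM + 1)), in which the added 1 understates the difference of low genes, and genes with a log2 ratio of 1 or more were called higher and those with -1 or less lower. By that rule of size 5 of the 6 members were called higher, beside 15.3% of the 22150 genes with an FPKM of at least 1 in either library, and 0 of 6 were called lower, beside 8.23%. The member that was not called is NAC5. The median log2 ratio was 5.78 over the members and -0.31 over all measured genes, and the members ranged between 0.86 and 7.10. Since the same values chose the genes, these counts describe the choice.

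NAC6, also called SNAC2, encodes a factor induced by drought, salt, cold, wounding and abscisic acid. It stood at 271 FPKM in lf2 and 1.01 FPKM in XD1B, from 15445 and 61 fragments. The FPKM ratio was 269, with a counting interval of 210 to 352, and the log2 ratio was 7.08. In lf2 the gene ranked 284 by FPKM among all 57446 genes, while in XD1B it ranked 19985. Intervals here are exact Clopper-Pearson 95% intervals from the recovered fragments and cover counting error only, not the variation between panicles or plants.

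SNAC1, known for its role in guard cells and in stomatal closure under drought, had the highest level of the 6 in both libraries. It stood at 535 FPKM in lf2 and 8.02 FPKM in XD1B, from 19306 and 308 fragments. The ratio was 66.7 (59.6 to 74.9) and the log2 ratio 5.89. It ranked 94 among all genes in lf2 and 12867 in XD1B. SNAC1 and NAC6 together made up 73.2% of the members' summed FPKM in lf2.

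NAC5, a factor studied in drought and salt tolerance and in abscisic acid responses of leaves and roots, differed least. It stood at 9.89 FPKM in lf2 and 5.02 FPKM in XD1B, from 541 and 292 fragments. The ratio was 1.97 (1.71 to 2.28). Its log2 ratio of 0.86 lay just under the call, at rank 3763 of the measured genes. The call depends on the scaling of the libraries: the log2 ratio was 1.22 after lf2 was rescaled to a median ratio of 1 over well expressed genes. NAC5 was the second most abundant member in XD1B and the least abundant in lf2.

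NAC3, studied in salt and abscisic acid responses, stood at 14.3 FPKM in lf2 and 0.97 FPKM in XD1B, from 513 and 37 fragments. The ratio was 14.7 (10.5 to 21.2) and the log2 ratio 2.96. In level it stayed near NAC5 in lf2 and near NAC6 in XD1B.

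NAC10, which has been used to raise drought tolerance when expressed in roots, was almost undetected in the wild type panicle. It stood at 139 FPKM in lf2 and 0.0197 FPKM in XD1B, and the XD1B value rests on 1 recovered fragment, against 6637 in lf2. Both recovered numbers are lower bounds. The FPKM ratio was 7058, with a counting interval of 1266 to 278800. With the pseudocount its log2 ratio was 7.10, close to that of NAC6, because the added 1 outweighs the XD1B value. NAC10 ranked 54 by log2 ratio among the measured genes, and NAC6 ranked 56.

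NAC4, which in rice has been described as an inducer of hypersensitive cell death in defence, stood at 132 FPKM in lf2 and 1.61 FPKM in XD1B. The recovered fragments of 1231 and 16 are lower bounds, since a factor common to both libraries cannot be seen, and its recovered length of 341 bases lies well under the 1562 bases that the RefSeq table gives for the gene. The ratio was 81.8 (50.2 to 144), and this interval is at least as wide as the true counts would give. The log2 ratio was 5.67.

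The order of the 6 levels was not the same in the libraries. In lf2 it ran from SNAC1 through NAC6, NAC10, NAC4 and NAC3 to NAC5, a span of 54.1-fold. In XD1B it ran from SNAC1 through NAC5, NAC4, NAC6 and NAC3 to NAC10. Neighbours in this order whose 95% counting intervals overlapped were NAC10 and NAC4 in lf2 (136 to 142 and 125 to 139 FPKM), and in XD1B NAC4 and NAC6 (0.92 to 2.62 and 0.77 to 1.29 FPKM) as well as NAC6 and NAC3 (0.77 to 1.29 and 0.68 to 1.33 FPKM). The other neighbours in either order were separate within counting error. Since the recovered fragments are lower bounds, intervals are at least as wide as the true counts would give. The overlaps that involve NAC4 may not hold with the true counts.

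**Figure D1:**
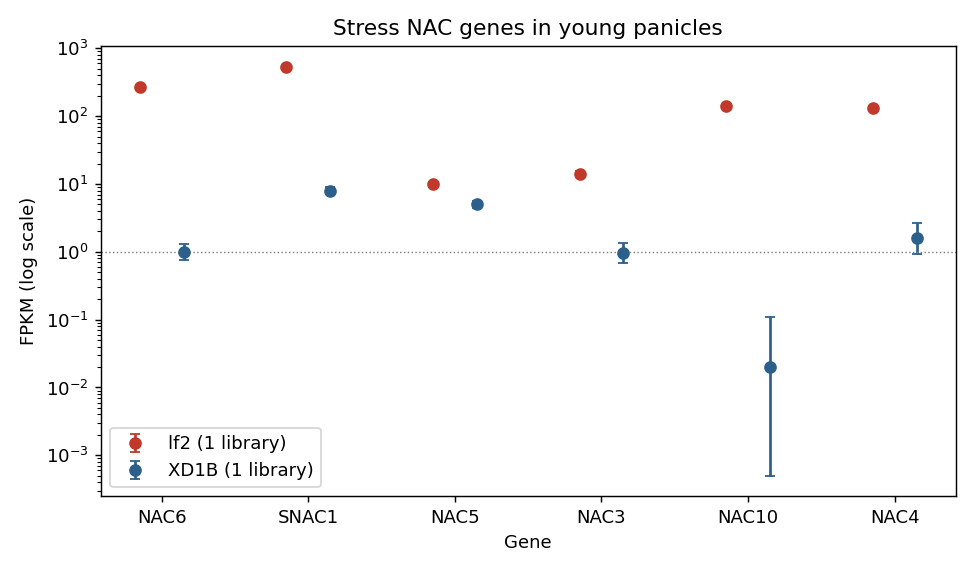
FPKM of the 6 stress NAC genes on a log axis, with lf2 in red left of XD1B in blue, 1 library each. Bars are exact Poisson 95% intervals of the recovered fragments, which are lower bounds, and the dotted line marks an FPKM of 1. All 6 points of lf2 lie above those of XD1B, from 9.89 against 5.02 for NAC5 to 139 against 0.0197 for NAC10.

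Low starting levels bear on how these calls are read. NAC3 and NAC10 lay under an FPKM of 1 in XD1B, so they entered the comparison through their lf2 value alone, and both were called higher. Of the 2140 genes that entered in that way 81.3% were called higher, which makes the call of these 2 genes usual for such genes. NAC6, SNAC1, NAC5 and NAC4 lay between FPKM 1 and 10 in XD1B, and 3 of these 4 were called higher, beside 13.2% of the 8326 genes in that range. The XD1B counting intervals of NAC6 (0.77 to 1.29 FPKM), NAC4 (0.92 to 2.62 FPKM) and NAC3 (0.68 to 1.33 FPKM) cross an FPKM of 1. On the recovered fragments it is not settled which range these genes belong to. The log2 ratio of SNAC1 ranked 151, that of NAC4 180 and that of NAC3 1080 among the 22150 measured genes. In the plot of all measured genes 5 of the members lie above the band that holds most genes, NAC3 nearest to it.

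**Figure D2:**
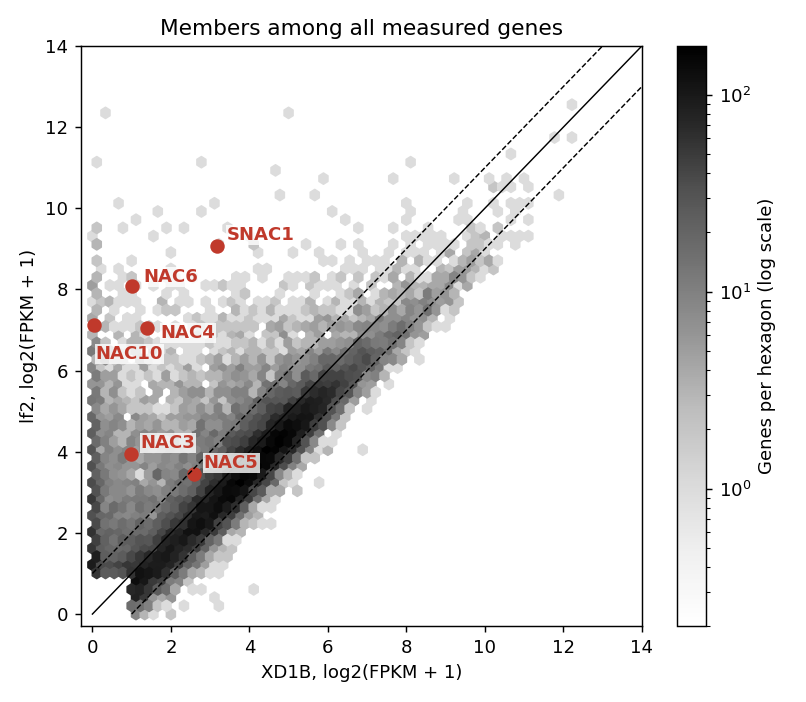
log2(FPKM + 1) in lf2 (vertical axis) against XD1B (horizontal axis) for the 22150 measured genes, shaded by the number of genes per hexagon, with the 6 stress NAC genes in red. The solid line marks equal levels and the dashed lines a log2 ratio of 1 and -1; NAC5 lies just under the upper dashed line and the other 5 lie above it.

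Of 29 other NAC family genes in a list, 22 were measured, 15 were called higher in lf2 and 0 lower, a share of 68.2% beside the 15.3% of all measured genes. Their median log2 ratio was 2.47, and their summed level was 484 FPKM in lf2 and 113 FPKM in XD1B. Of the 11 that passed through lf2 alone 10 were called, where 81.3% of all such genes were called. Of the 11 with an FPKM of at least 1 in XD1B 5 were called. These comprise 4 of the 7 from FPKM 1 to under 10, beside 13.2% of all genes in that range, and 1 of the 4 at 10 or more. The share of all genes at 10 or more was not computed. The list joins stress-related and developmental NAC genes and does not hold the whole family, and it too was drawn up with earlier results of these libraries known. The RefSeq table holds the names of 3 of its genes, and the others are given by locus.

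The highest log2 ratios in that list were at LOC_Os12g03040, LOC_Os02g36880, LOC_Os05g34830 and LOC_Os12g41680. LOC_Os02g36880 stood at 74.8 FPKM in lf2 and 1.17 FPKM in XD1B, a ratio of 64.0 (48.5 to 86.5). LOC_Os05g34830 stood at 28.2 FPKM in lf2 and 0.27 FPKM in XD1B, a ratio of 105 (59.9 to 204). For LOC_Os12g41680 the levels were 17.0 FPKM in lf2 and 0.25 FPKM in XD1B, a ratio of 69.0 (38.4 to 139). These levels in lf2 were below those of NAC6, SNAC1, NAC10 and NAC4 and above those of NAC3 and NAC5.

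LOC_Os12g03040 was close to NAC10 in its values. It stood at 113 FPKM in lf2 and 0.0177 FPKM in XD1B, with 6004 recovered fragments against 1, nearly the pattern of NAC10 with 6637 against 1. The ends of rice chromosomes 11 and 12 share a duplicated segment with similar genes, and these loci lie near those ends. The sources used here do not say how fragments that match both copies were counted, so the separate levels of NAC10 and LOC_Os12g03040 are uncertain.

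At the other end of the list were genes whose level as deposited was similar or lower in lf2. Over the 13597 genes with an FPKM of at least 5 in both libraries, the median ratio of lf2 to XD1B was itself 0.76. LOC_Os08g40030 stood at 12.6 FPKM in lf2 and 20.9 FPKM in XD1B, a ratio of 0.60 (0.54 to 0.68). LOC_Os06g23650 stood at 27.7 FPKM in lf2 and 35.02 FPKM in XD1B, a ratio of 0.79 (0.72 to 0.87), and LOC_Os08g02300 had 2.80 FPKM in lf2 against 4.19 FPKM in XD1B, a ratio of 0.67 (0.54 to 0.82). LOC_Os03g02800 stood at 3.05 FPKM in lf2 and 2.79 FPKM in XD1B, with an interval of the ratio (0.90 to 1.34) that includes 1. None of these 4 passed the rule of size, so the NAC family as listed was mixed in size of difference, with 7 measured genes that were not called and a further 7 that stayed under an FPKM of 1 in both libraries.

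Of the 3 named genes, picked out here after their values were seen, NAC2 stood at 41.1 FPKM in lf2 and 3.39 FPKM in XD1B, a ratio of 12.1 (10.3 to 14.4). NTL3, also named NAC8 in the reference table, had 36.7 FPKM in lf2 against 14.3 FPKM in XD1B, a ratio of 2.57 (2.37 to 2.79). ONAC045 stood at 5.24 FPKM in lf2 and was listed at 0 in XD1B.

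Abscisic acid is one of the signals that induce stress NAC genes, and its level is set by synthesis through NCED enzymes and by breakdown through ABA 8'-hydroxylases. Of 11 listed genes for synthesis, breakdown and bZIP factors of the hormone, all 11 were measured, 6 were called higher in lf2 and 0 lower, a share of 54.5% beside the 15.3% of all measured genes. Of the 11, 3 entered through lf2 alone, 2 of them called, where 81.3% of all such genes were called. Another 3 lay from FPKM 1 to under 10 in XD1B, with 2 called, beside 13.2% of all genes in that range. The other 5 lay at 10 or more, with 2 called, and the share of all genes there was not computed. The median log2 ratio was 1.08, and 2.35 over the 9 genes that reached an FPKM of 5 in one of the libraries. The highest log2 ratios were at LOC_Os07g05940 (5.51), the breakdown gene ABA8OX1 (4.77), LOC_Os12g42280 (2.86) and LOC_Os01g64730 (2.45). ABA8OX1 stood at 78.3 FPKM in lf2 and 1.90 FPKM in XD1B, a ratio of 41.2 (32.0 to 53.9).

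LOC_Os07g05940, with 45.2 FPKM in lf2 and 0.0160 FPKM in XD1B, rests on 1 recovered fragment in XD1B, as NAC10 does. The ratio of 2828 for LOC_Os07g05940 had an interval of 507 to 111700. The synthesis gene NCED3, picked out after its values were seen, stood at 12.7 FPKM in lf2 and 1.69 FPKM in XD1B, a ratio of 7.54 (6.28 to 9.13). The lowest log2 ratios were at LOC_Os09g28310 (-0.55), LOC_Os06g10880 (-0.46), the breakdown gene ABA8OX3 (0.29) and LOC_Os01g64000 (0.52), and none of these was called.

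Dehydrin and LEA genes, which protect cells as they lose water, are common readouts of stress responses in which NAC factors act. Of 7 listed readout genes 6 were measured, 5 were called higher in lf2 and 0 lower, a share of 83.3% beside the 15.3% of all measured genes. The calls include all 3 that were measured through lf2 alone, where 81.3% of all such genes were called. They also include 1 of the 2 from FPKM 1 to under 10 in XD1B, beside 13.2% of all genes in that range. The remaining call is the 1 gene at 10 or more, where the share of all genes was not computed. Their median log2 ratio of 2.26 was 1.17 with a pseudocount of 5 and 3.85 with a pseudocount of 0.1. The list also holds LOC_Os03g12820, which by its listed name is not a dehydrin or LEA gene. LOC_Os03g12820 stood at 88.0 FPKM in lf2 and 1.15 FPKM in XD1B, a ratio of 76.4 (53.0 to 114). LOC_Os11g26790 had 22.8 FPKM in lf2 against 0.43 FPKM in XD1B, a ratio of 53.5 (32.2 to 96.0). RAB16B stood at 7.02 FPKM in lf2 and was listed at 0 in XD1B, and RAB16C had 4.09 FPKM in lf2 against 0.78 FPKM in XD1B, a ratio of 5.26 (3.14 to 9.28). The dehydrin gene LIP9 was already abundant in XD1B, at 123 FPKM in lf2 and 56.1 FPKM in XD1B, a ratio of 2.20 (2.09 to 2.31). LEA3, a late embryogenesis abundant protein gene, stood at 2.45 FPKM in lf2 and 2.24 FPKM in XD1B, and its ratio of 1.09 (0.67 to 1.79) does not separate the libraries at this depth.

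**Figure D3:**
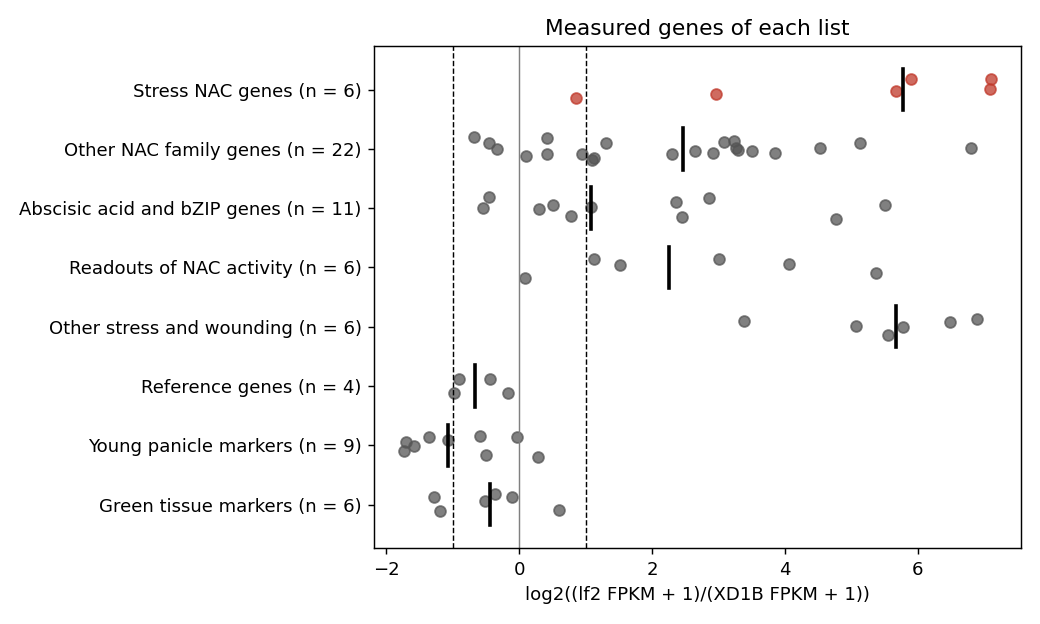
log2 ratio of lf2 over XD1B for every measured gene of each list, 1 point per gene, with the list median as a black bar and the rule of size as dashed lines at 1 and -1. The stress NAC genes (red, median 5.78) and the stress and wounding genes of other families (median 5.66) lie farthest right, and the panicle markers (median -1.07) farthest left.

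The difference of the stress NAC genes did not stand alone in the lf2 library. All 6 listed stress and wounding genes of other families (TIFY11A, TIFY11D, HSFA2A, PBZ1, WRKY71 and WRKY62) were called higher, beside 15.3% of all measured genes, with log2 ratios between 3.38 and 6.88. Of these 6 genes, 3 were measured through lf2 alone, where 81.3% of all such genes were called. This list too was drawn up with earlier results of these libraries known, so its count describes the choice. Of 9 young panicle markers, all measured and none at 0, 5 were called lower and 0 higher, beside 8.23% of all measured genes called lower, with a summed level of 398 FPKM in lf2 and 721 FPKM in XD1B. Those called lower were MADS1 (log2 ratio -1.36), MADS6 (-1.58), DL (-1.74), G1 (-1.70) and LOC_Os10g33780 (-1.07). OSH1, a gene of undifferentiated meristem cells, was not called and stood at 60.7 FPKM in lf2 and 86.6 FPKM in XD1B. MADS15, an AP1/FUL-type floral gene, also not called, had 149 FPKM in lf2 against 225 FPKM in XD1B. The other markers not called were MADS14 and LAX1. MADS14 was nearly equal, at 62.7 FPKM in lf2 and 64.0 FPKM in XD1B. LAX1 was slightly higher in lf2, at 4.51 FPKM against 3.54 FPKM in XD1B. Both libraries thus carried panicle transcripts. Of 7 green tissue markers 6 were measured, 2 were called lower and 0 higher, beside 8.23% and 15.3% of all measured genes. The 7 markers summed to 77.1 FPKM in lf2 and 128 FPKM in XD1B. After lf2 was rescaled to a median ratio of 1, 3 panicle markers and 0 green tissue markers were called lower, beside 389 of 22496 genes. The 4 listed reference genes had a median log2 ratio of -0.67 and none was called. One of them, LOC_Os01g22490, could not be matched to its listed name in the RefSeq table, and the median without it was -0.44. The part of these shifts in the levels of the stress NAC genes was not tested. In whole panicles, fewer cells of a type and less RNA per cell cannot be told apart, and with 1 library a group the genotype and the handling of the single sample cannot be told apart either.

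Genes next to the members on the chromosome were examined as a measure that did not enter their choice, and this comparison was added after the members' values were known. Locus numbers give the order along each chromosome, and the 5 loci on either side of each member gave 60 neighbours. Of these, 24 were measured, 1 was called higher and 3 were called lower, beside 15.3% and 8.23% of all measured genes. Their median log2 ratio was -0.39, near the -0.31 of all measured genes. The neighbour called higher was LOC_Os01g66100, 2 places from NAC6, at 15.4 FPKM in lf2 and 3.70 FPKM in XD1B. Between it and NAC6 lies LOC_Os01g66110, at 24.0 FPKM in lf2 and 50.4 FPKM in XD1B, one of the neighbours called lower. The other neighbours called lower were LOC_Os01g59990 and LOC_Os01g60070 near NAC4.

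NAC10 lay among loci that were almost silent in both libraries. None of its 10 neighbours was measured, and the highest of them, LOC_Os11g03320, stood at 0.0487 FPKM in lf2 and was listed at 0 in XD1B. Beyond these loci lies LOC_Os11g03370, the NAC gene ONAC045. It stood at 5.24 FPKM in lf2, was listed at 0 in XD1B and was called higher. SNAC1 had 6 measured neighbours and NAC4 had 8, and 0 of these were called higher. NAC5 had 1 measured neighbour and NAC3 had 2, with 0 called higher, so around these genes and NAC10 few or no neighbours could be read.

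**Figure D4:**
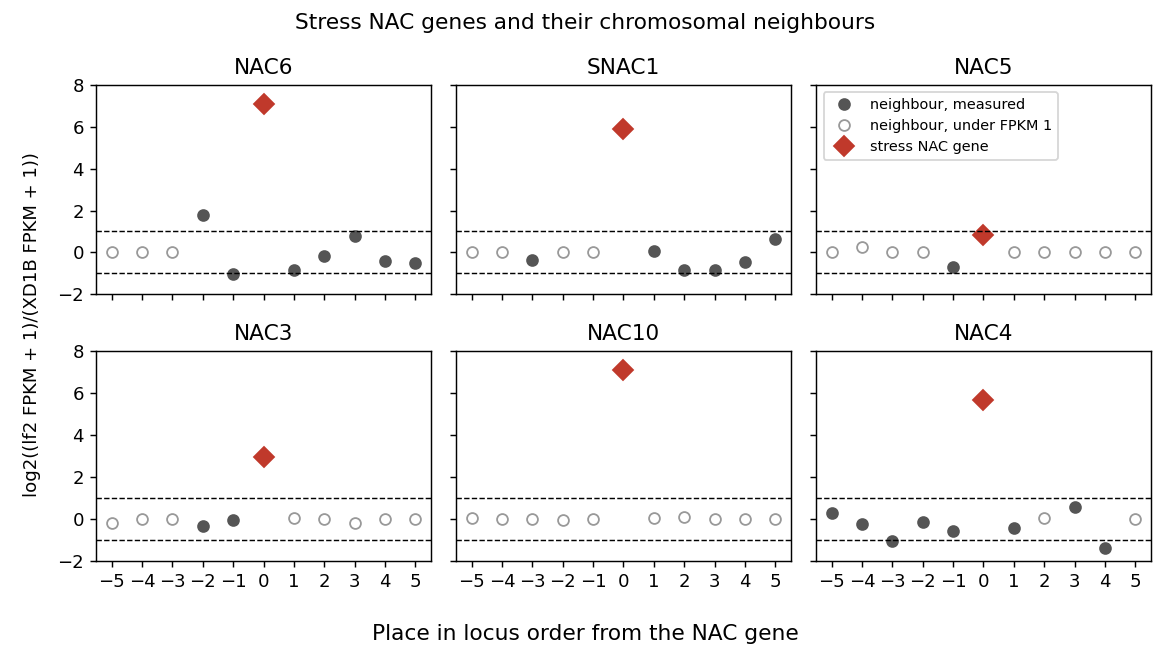
log2 ratio of lf2 over XD1B for each stress NAC gene (red diamond at place 0) and the 5 loci on either side in locus order; filled circles are measured neighbours, open circles are loci under an FPKM of 1 in both libraries, and dashed lines mark 1 and -1. Of 24 measured neighbours 1, next but one to NAC6, lies above the upper line.

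Outside the lists, the gene nearest to NAC10 in both values, by the distance of log2(FPKM + 1) over the 2 libraries, was LOC_Os06g25010, at 136 FPKM in lf2 and listed at 0 in XD1B. The gene nearest to NAC5 was LOC_Os12g38130, at 9.83 FPKM in lf2 and 4.97 FPKM in XD1B. With 2 libraries such likeness means only that a pair of values is close.

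The rescaling of the libraries moves all ratios together. With FPKM as deposited 3395 genes were called higher and 1822 lower, and after rescaling lf2 to a median ratio of 1 over the 13597 genes with an FPKM of at least 5 in both libraries 4410 were called higher and 389 lower, a shift of the median of all genes by 0.36. The 5 members called higher stayed at least at a log2 ratio of 1.69 under every setting run, and NAC5 was called only after that rescaling.

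**Figure D5:**
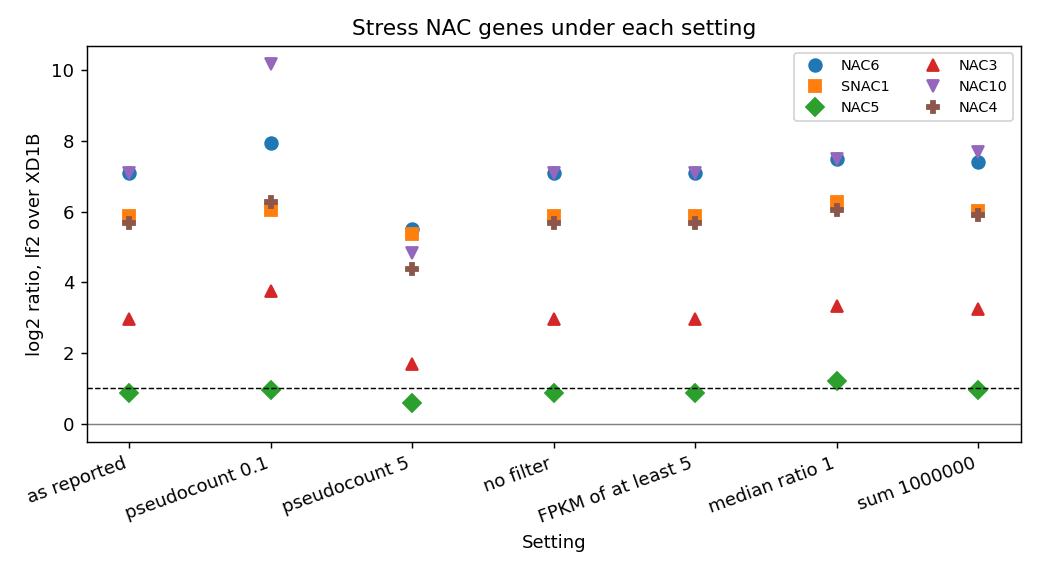
log2 ratio of lf2 over XD1B for each stress NAC gene as reported and under the 6 alternative settings, with the rule of size as a dashed line at 1. NAC10 moves most, between 4.84 and 10.2, since its XD1B level is far below the pseudocount, and NAC5 stays between 0.57 and 1.22.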

How the data were processed

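The authors deposited FPKM values per gene in a table with 1 column per library, named so per the file headers. No header or label names the aligner, counting tool, strand setting, genome build or annotation. The members and gene lists were chosen with earlier results of these data known. All 6 members, up to 4 measured genes with the highest and 4 with the lowest log2 ratio of each list, and the genes nearest to the extreme members were named by rule. The panicle and green tissue markers, stress and reference genes are summarised. Symbols are used where the RefSeq table (ASM3414082v1) holds them on the same chromosome within 4 Mb of the place given by locus order; builds may differ, so no coordinates are printed.

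Library totals were recovered as the largest totals for which the 300 lowest values are whole fragments over whole-base lengths (100% of them in both libraries). Fragments per gene are the smallest whole numbers that suit both libraries within 0.0002 plus 3e-07 of the number, hence lower bounds. The procedure was tested on simulated data. Genes under an FPKM of 1 in both libraries were not measured. Alternatives were pseudocounts of 0.1 and 5, no filter, a filter at 5, and rescaling to a median ratio of 1 or to a sum of 1000000. Protein and promoter sequences were not analysed here. Tools were numpy 2.4.6, scipy 1.17.1, numba 0.67.0, pandas 2.3.3 and matplotlib 3.10.9 under Python 3.11.15.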

Additional observations from a re-analysis of the deposited data

How the results depend on the processing

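No paired analysis was possible because each group holds 1 library, and no replicate could be left out. The numbers of stress NAC genes called higher (5, or 6 when lf2 was rescaled to a median ratio of 1) and lower (0) stayed within 1.5 times of the reported counts under all 6 alternatives, as did those of the 29 other NAC genes and of the abscisic acid, readout, other stress and reference gene lists. The settings for the panicle and green tissue markers, and the reference genes without LOC_Os01g22490, were chosen after seeing the data. Panicle markers called lower numbered 3 and green tissue markers 0 under the rescaling to a median ratio of 1, and green tissue markers 1 with a pseudocount of 5, against 5 and 2 as reported. Over all genes, a pseudocount of 0.1 gave 2978 called lower, a pseudocount of 5 gave 648 lower and 2183 higher, and the rescaling to a median ratio of 1 gave 389 lower. A larger pseudocount shrinks the log2 ratio of low genes, and the rescaling multiplies each lf2 value by the same factor. The median of the members lay between 4.61 (pseudocount of 5) and 6.17 (median ratio of 1). The log2 ratio of NAC6 lay between 5.52 and 7.94, of SNAC1 between 5.37 and 6.29, of NAC4 between 4.37 and 6.27, and of NAC3 between 1.69 and 3.75. The median of the other NAC genes was 1.10 without a filter, where unmeasured genes enter, and 1.07 with a pseudocount of 5. That of the abscisic acid genes lay between 0.88 and 2.35, and that of the readout genes between 1.17 and 3.85. Depth limits NAC10, LOC_Os12g03040 and LOC_Os07g05940, each with 1 recovered fragment in XD1B, a lower bound.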
